A study of Homo sapiens with 30 samples.

Results

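The 10 genes described here are targets of the oxygen-sensing pathway or enzymes of glycolysis: ALDOC, SLC2A1, STC1, PFKFB4, CA9, NDRG1, VEGFA, BNIP3, PGK1 and LDHA. They were chosen by symbol from results of these same libraries, because genes of hypoxia and glycolysis had followed the dose of Samul-tang, and STC1 was picked for its pattern. All 10 were found among the 60675 gene rows of the count table, and all 10 were abundant enough to be tested. The difference between the high and low doses of Samul-tang, that between Samul-tang and Palmul-tang at the high dose, the values of Samul-tang against vehicle at the high dose and every value of STC1 are therefore given as a description without a test. Counts of tested genes cover the 9 members other than STC1. The low-dose and high-dose libraries of Samul-tang and the high-dose libraries of Palmul-tang thus took part in the choice. Tested comparisons that contain any of them are not independent of it, and their p-values are no separate support. They are the dose step of Palmul-tang, its high dose against vehicle or Sibjeondaebo-tang, and the difference between its step and that of Sibjeondaebo-tang. Samul-tang against Palmul-tang at the low dose and the pooled low doses against vehicle belong to them too. The remaining tests contain none of these libraries. The members were still chosen with earlier results of these data known, so independence of those tests is not established.

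The cells were A549, an established line from a human lung carcinoma, kept in medium with 10% fetal bovine serum. They were given ethanol extracts of traditional Korean formulas, or vehicle, and their RNA was sequenced 24 h later. Samul-tang (2 libraries per dose, numbered replicates 2 and 3), Sibjeondaebo-tang (3 per dose), Palmul-tang (3 per dose) and Sagunja-tang (1 per dose, numbered replicate 3) were each given at 20, 100 and 500 µg/mL, called the low, medium and high dose. The vehicle, DMSO, had 3 libraries, which makes 30 libraries in 13 groups. By their traditional composition, Palmul-tang joins the herbs of Samul-tang and Sagunja-tang, and Sibjeondaebo-tang adds further herbs to Palmul-tang. The DMSO content is 0.1% in the sample labels and 2% in the series text, and which of them held for the extracts was not settled here.

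Libraries held between 23986637 and 35159898 expected counts (median 32383996). The epithelial markers KRT7, KRT8, KRT18, EPCAM and CDH1 summed to between 8020 and 11100 CPM (expected counts scaled to the effective library total) in each library, against 14.2 to 20.0 CPM for 5 fibroblast, 12.9 to 27.1 for 5 leukocyte and 17.1 to 21.7 for 5 endothelial markers. CD68 made up most of the leukocyte sum (12.7 to 27.0 CPM) and KDR most of the endothelial sum (16.9 to 21.5), and COL3A1 (6.54 to 10.7) and DCN (4.12 to 6.89) were present in every library. The defining genes CD3E (at 0 in 21 of 30 libraries), VWF (21) and CDH5 (23) were at or near 0. The leukocyte sum moved with the groups, at 12.9 to 17.3 CPM at the low and 20.4 to 22.9 at the high dose of Sibjeondaebo-tang. It was 16.6 to 16.8 and 20.7 to 22.7 at those of Samul-tang, and 13.4 to 17.0 and 16.1 to 22.2 at those of Palmul-tang, against 22.4 to 27.1 in vehicle. The epithelial sum moved as well, at 8860 to 9110 CPM at the low and 10200 to 10900 at the high dose of Sibjeondaebo-tang. Its ranges at those doses overlapped in Samul-tang (8020 to 9470 and 8820 to 9230) and Palmul-tang (8750 to 9350 and 8190 to 8920). Vehicle held 10700 to 11100 CPM of it. The part of these sums in the results was not tested. Every title carries the same batch letter, but the vehicle's library codes start with E1, those of Samul-tang and Sagunja-tang with 14, and those of Sibjeondaebo-tang and Palmul-tang with 15. A difference between extract and vehicle, or between Samul-tang and Palmul-tang, therefore cannot be told apart from whatever those codes stand for, and the comparisons between doses and between formulas are given before those with vehicle. The labels do not say whether replicates were separate cultures, so SDs and p-values measure only how far these libraries differ, and that may be technical variation. In RNA from whole cultures, less RNA per cell and fewer cells that hold it cannot be told apart, and cell numbers were not part of these data.

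Cells adjust these genes through the hypoxia-inducible factors. In well-oxygenated cells the prolyl hydroxylases encoded by EGLN1, EGLN2 and EGLN3 mark the alpha subunits HIF1A and EPAS1, which the VHL protein then sends for degradation. In low oxygen the alpha subunits persist, pair with ARNT and bind short DNA sites with a core of ACGTG or GCGTG. Their targets move glucose into the cell, carry it through glycolysis to lactate, keep pH in balance and promote new vessels. Carcinoma lines such as A549 run glycolysis in ample oxygen, and many of the targets can be transcribed without hypoxia. Oxygen and the activity of these factors were not part of these data.

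Promoters of 4 members are printed to show where that core lies: ALDOC and SLC2A1, which followed the dose in both formulas tested, CA9, which parted between formulas at the high dose, and LDHA, the most abundant. RefSeq promoters on GRCh38.p14, 250 bases before to 50 bases after a start site and 300 in all, were matched by symbol for 7 of the 10 members. Each is 5′ to 3′ on the gene's own strand, in lower case, with capitals for ACGTG or GCGTG read on either strand, so that CACGT and CACGC are the same cores on the other strand. Where an ACGTG stands in the palindrome CACGTG, all of its letters are in capitals. The windows are ALDOC at chr17:28576846-28577145 (minus strand), SLC2A1 at chr1:42958819-42959118 (minus strand), CA9 at chr9:35673678-35673977 (plus strand) and, from the more upstream of its listed starts, LDHA at chr11:18394313-18394612 (plus strand).

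ALDOC: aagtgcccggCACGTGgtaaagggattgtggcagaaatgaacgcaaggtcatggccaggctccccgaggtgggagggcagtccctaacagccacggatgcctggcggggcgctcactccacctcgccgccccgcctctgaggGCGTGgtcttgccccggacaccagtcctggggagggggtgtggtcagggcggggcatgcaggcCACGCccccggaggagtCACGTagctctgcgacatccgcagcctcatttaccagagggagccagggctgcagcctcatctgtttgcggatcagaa

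SLC2A1: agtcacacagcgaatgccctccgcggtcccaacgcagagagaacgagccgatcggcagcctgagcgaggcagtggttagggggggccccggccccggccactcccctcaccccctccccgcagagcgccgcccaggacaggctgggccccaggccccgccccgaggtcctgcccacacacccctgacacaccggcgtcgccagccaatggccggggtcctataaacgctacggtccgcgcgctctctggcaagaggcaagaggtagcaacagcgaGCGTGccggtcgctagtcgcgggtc

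CA9: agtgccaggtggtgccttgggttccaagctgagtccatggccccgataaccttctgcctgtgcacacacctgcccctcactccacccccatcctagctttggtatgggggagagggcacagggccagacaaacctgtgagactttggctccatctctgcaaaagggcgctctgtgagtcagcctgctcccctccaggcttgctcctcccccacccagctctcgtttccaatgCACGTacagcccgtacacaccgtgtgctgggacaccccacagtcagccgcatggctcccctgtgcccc

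LDHA: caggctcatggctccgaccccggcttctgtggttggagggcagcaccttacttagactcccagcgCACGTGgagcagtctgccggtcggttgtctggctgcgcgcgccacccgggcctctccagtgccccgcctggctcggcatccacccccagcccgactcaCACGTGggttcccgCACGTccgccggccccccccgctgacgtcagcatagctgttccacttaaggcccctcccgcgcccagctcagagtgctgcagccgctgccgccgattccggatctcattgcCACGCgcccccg

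The ALDOC window held 3 matches to ACGTG and 2 to GCGTG, and the LDHA window held 5 and 1, a CACGTG being counted once on each strand. CA9 held 1 ACGTG that begins 18 bases before the start site, and SLC2A1 held 1 GCGTG that begins 25 bases after it. PFKFB4 held 1 GCGTG, BNIP3 held 2 ACGTG and 4 GCGTG, and PGK1 held 3 and 1. Every one of the 7 windows thus held a core, while 48.4% of all 35116 promoters of the same length did. ACGTG alone was in 5 of the 7 and in 21.4% of all, GCGTG in 6 of the 7 and in 36.5% of all. The palindrome CACGTG, which overlaps ACGTG on both strands, was in 3 of the 7 (ALDOC, BNIP3 and LDHA) and in 7.26% of all. These are matches of letters, with no measurement of binding behind them.

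Among themselves the members differed widely in abundance. Set on a common scale of CPM per kb of merged exons in the vehicle, LDHA stood at 287.8 ± 6.92 and PGK1 at 122.3 ± 6.58 (SD, n = 3 each). CA9 followed at 46.8 ± 1.51, ahead of SLC2A1 (16.1 ± 0.548), BNIP3 (12.2 ± 0.422), NDRG1 (10.2 ± 0.239), STC1 (7.31 ± 0.476) and ALDOC (4.75 ± 0.211). VEGFA (2.52 ± 0.0203) and PFKFB4 (0.757 ± 0.123) were the lowest. No neighbours in this order had overlapping libraries. The mean over groups varied most for STC1, whose highest of 13 group means was 2.34 times its lowest, and least for NDRG1, at 1.23 times. CA9 (1.74), ALDOC (1.71) and PFKFB4 (1.62) came after STC1.

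**Figure D1:**
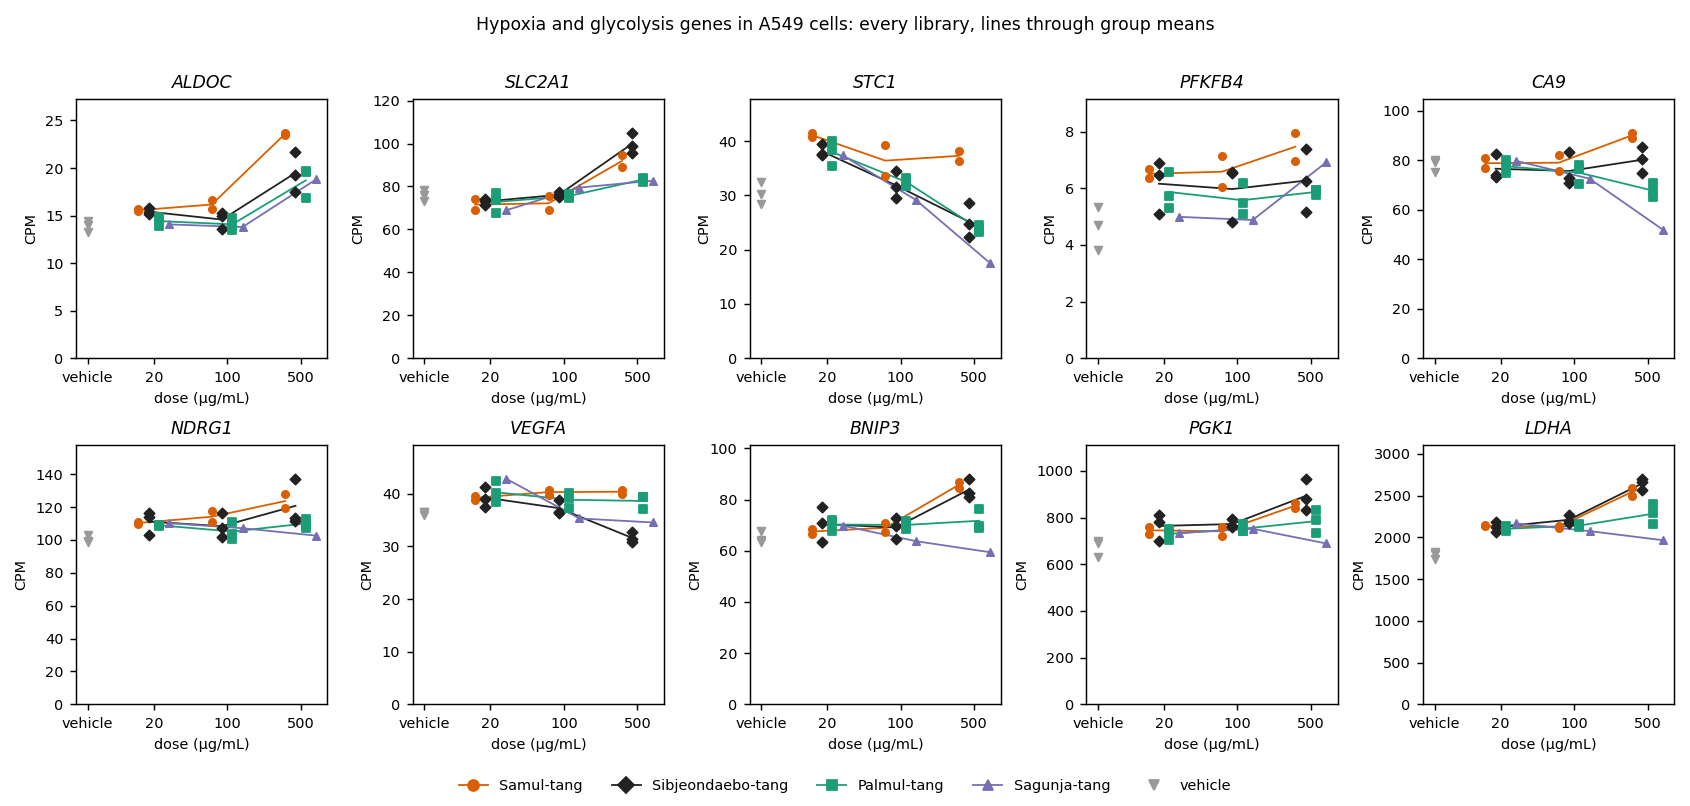
Abundance of the 10 genes in every library, in CPM on a linear axis, against the dose in µg/mL, with 1 panel per gene. Points are libraries, lines join group means, and colours mark Samul-tang, Sibjeondaebo-tang, Palmul-tang, Sagunja-tang and vehicle. For ALDOC and SLC2A1 the high-dose points of all 4 formulas lie above the rest, and for STC1 the high-dose points of Samul-tang, at 36.3 and 38.3 CPM, lie apart from those of Palmul-tang, at 23.3 to 24.5 CPM.

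The first question was how glucose entry and aldolase followed the dose. ALDOC (ENSG00000109107, chr17:28573115-28577264, minus strand of GRCh38) encodes the brain-type aldolase that splits fructose bisphosphate. It held 15.7 and 15.4 CPM at the low, 15.7 and 16.6 at the medium and 23.7 and 23.5 at the high dose of Samul-tang. In Sibjeondaebo-tang ALDOC held 15.3, 15.8 and 15.1 CPM at the low, 14.9, 13.6 and 15.2 at the medium and 19.2, 17.5 and 21.7 at the high dose. In Palmul-tang ALDOC held 14.5, 13.9 and 14.9 CPM at the low, 14.1, 14.7 and 13.5 at the medium and 19.6, 19.6 and 16.9 at the high dose. All 9 high-dose libraries, the lone Sagunja-tang library at 18.8 CPM included, lay above every low-dose, medium-dose and vehicle library, and the 2 of Samul-tang were the highest of the 30. The vehicle held 13.2, 14.1 and 14.4 CPM. The dose step, the log2 difference between the high and the low dose divided by 2 and so an average per 5-fold dose, was 0.17 (SE 0.034, adjusted p = 0.000166) for ALDOC in Sibjeondaebo-tang and 0.19 (SE 0.034, adjusted p = 0.000629) in Palmul-tang by edgeR's quasi-likelihood test with Benjamini-Hochberg adjustment. In Samul-tang it was 0.30 (SE 0.041), a 1.52-fold level at the high against the low dose. In Sagunja-tang it was 0.21 from 1 library per dose. Here and for the genes below, the Palmul-tang step contains the high-dose libraries that took part in the choice of the members. The medium-dose libraries do not enter the step, and those of ALDOC lay near or below the low-dose libraries in Sibjeondaebo-tang and Palmul-tang, so the difference arose between 100 and 500 µg/mL.

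SLC2A1 (ENSG00000117394, chr1:42925375-42959176, minus strand), which encodes the glucose transporter GLUT1 of the plasma membrane, showed the same separation of the high dose. It held 74.3 and 68.8 CPM at the low, 75.5 and 68.8 at the medium and 94.4 and 89.3 at the high dose of Samul-tang. In Sibjeondaebo-tang the low dose gave 71.6, 74.2 and 73.2 CPM, the medium 77.4, 74.9 and 76.0 and the high 105, 95.7 and 99.0. In Palmul-tang the low dose gave 76.7, 73.7 and 67.8 CPM, the medium 74.4, 75.6 and 76.7 and the high 83.6, 81.9 and 84.0. Again the 9 high-dose libraries lay above all others, with the 3 of Sibjeondaebo-tang highest and Sagunja-tang at 82.7 CPM. The vehicle held 73.2, 76.0 and 78.4 CPM, within the range of the low and medium doses. The dose step of SLC2A1 was 0.23 (SE 0.023, adjusted p = 2.13e-09) in Sibjeondaebo-tang and 0.10 (SE 0.023, adjusted p = 0.00919) in Palmul-tang, with 0.18 (SE 0.028) in Samul-tang and 0.13 in Sagunja-tang. In Palmul-tang SLC2A1 no longer passed without Palmul-tang low replicate 3 (adjusted p = 0.152) or when the 2 groups were fitted alone (adjusted p = 0.062), its adjusted p running from 0.00466 to 0.152 over the alternatives. SLC2A1 shares exon bases with AC099795.1 on its own strand and with SLC2A1-AS1 on the other, and ALDOC with AC005726.4 on the other. Whether counting used strand is not given in the sources used here, so reads of such partners may be among these counts.

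PFKFB4 (ENSG00000114268, chr3:48517684-48562015, minus strand), a bifunctional enzyme that sets the level of a sugar phosphate that regulates phosphofructokinase, was scarce and uneven. Its libraries held 6.97 and 7.97 CPM at the high dose of Samul-tang, 6.27, 5.16 and 7.39 at that of Sibjeondaebo-tang and 5.75, 5.93 and 5.94 at that of Palmul-tang, against 5.33, 4.71 and 3.83 CPM in vehicle. Over all 30 libraries PFKFB4 ran from 3.83 to 7.97 CPM, with its lowest in vehicle and its highest at the high dose of Samul-tang. Its dose steps were 0.02 (SE 0.067, adjusted p = 0.873) in Sibjeondaebo-tang and 0.00 (SE 0.068, adjusted p = 0.999) in Palmul-tang, with intervals (nominal 95%) of -0.12 to 0.15 and -0.13 to 0.13. Steps as large as those of ALDOC lie outside both intervals, and smaller ones that lie within them cannot be told from no change. PFKFB4 overlaps UCN2 on the same strand.

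The late glycolytic enzymes followed the dose of Sibjeondaebo-tang. LDHA (ENSG00000134333, chr11:18394388-18408425, plus strand), which turns pyruvate into lactate and renews the NAD+ that glycolysis needs, held 2068, 2179 and 2118 CPM at the low, 2265, 2166 and 2199 at the medium and 2703, 2568 and 2667 at the high dose of Sibjeondaebo-tang. In Samul-tang LDHA held 2132 and 2143 CPM at the low, 2141 and 2111 at the medium and 2497 and 2594 at the high dose. In Palmul-tang it held 2075, 2135 and 2095 CPM at the low, 2157, 2146 and 2118 at the medium and 2400.0, 2157 and 2288 at the high dose. The vehicle libraries, at 1742, 1827 and 1794 CPM, lay below every extract library, including that of the high dose of Sagunja-tang at 1965 CPM. The dose step of LDHA was 0.16 (SE 0.020, adjusted p = 1.52e-07) in Sibjeondaebo-tang and 0.06 (SE 0.020, adjusted p = 0.107) in Palmul-tang, with 0.13 (SE 0.025) in Samul-tang and -0.07 in Sagunja-tang. In Palmul-tang LDHA did not pass, but it did with DESeq2 (adjusted p = 0.0179) and without Palmul-tang high replicate 2 (adjusted p = 0.0384 by edgeR), with a range of 0.0179 to 0.518 over the alternatives.

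PGK1 (ENSG00000102144, chrX:77910739-78129296, plus strand), which makes ATP in the pay-off phase of glycolysis, held 698, 782 and 812 CPM at the low and 967, 832 and 878 at the high dose of Sibjeondaebo-tang. In Samul-tang PGK1 held 730.3 and 760.2 CPM at the low and 863 and 839 at the high dose. In Palmul-tang it held 736, 752 and 702 CPM at the low and 788, 733 and 832 at the high dose. In Sibjeondaebo-tang and Samul-tang the 2 doses of PGK1 did not overlap, and in Palmul-tang they did, against 632, 698 and 692 CPM in vehicle. The step was 0.11 (SE 0.027, adjusted p = 0.00138) in Sibjeondaebo-tang, 0.05 (SE 0.027, adjusted p = 0.393) in Palmul-tang and 0.10 (SE 0.034) in Samul-tang. LDHA and PGK1 moved closely together, with a Pearson correlation of 0.97 over the 13 group means, which share their libraries. GENCODE release 29 names 6 pseudogenes of LDHA, 1 of PGK1 and 39 of BNIP3, with which reads may be shared, and PGK1 also overlaps ATP7A and AL356235.1 on the same strand. Their levels are uncertain to that extent.

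BNIP3 (ENSG00000176171, chr10:131966455-131982013, minus strand), a receptor that marks mitochondria for removal by autophagy, separated the formulas at the high dose. It held 68.4 and 66.6 CPM at the low, 70.7 and 67.2 at the medium and 86.7 and 84.7 at the high dose of Samul-tang. In Sibjeondaebo-tang BNIP3 held 63.5, 70.9 and 77.0 CPM at the low, 64.6, 69.8 and 72.8 at the medium and 82.5, 81.0 and 88.2 at the high dose. In Palmul-tang it held 67.8, 71.8 and 71.1 CPM at the low, 68.6, 71.7 and 69.9 at the medium and 68.9, 69.7 and 76.5 at the high dose. The 5 high-dose libraries of Samul-tang and Sibjeondaebo-tang were the highest of all 30, while Sagunja-tang held its lowest value of BNIP3, 59.4 CPM, at its high dose, and the vehicle held 64.2, 63.4 and 67.7 CPM. The step was 0.13 (SE 0.027, adjusted p = 0.000354) in Sibjeondaebo-tang, 0.01 (SE 0.027, adjusted p = 0.88) in Palmul-tang and 0.17 (SE 0.033) in Samul-tang.

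CA9 (ENSG00000107159, chr9:35673856-35681159, plus strand), the membrane-bound carbonic anhydrase that acidifies the outside of hypoxic cells, parted between the formulas at the high dose. In Samul-tang it held 80.7 and 76.8 CPM at the low, 82.2 and 75.7 at the medium and 91.1 and 88.9 at the high dose. In Sibjeondaebo-tang CA9 held 73.0, 73.9 and 82.6 CPM at the low, 73.0, 70.7 and 83.2 at the medium and 80.4, 74.8 and 85.3 at the high dose. In Palmul-tang it held 74.8, 77.9 and 79.9 CPM at the low, 70.2, 78.1 and 76.5 at the medium and 64.9, 67.2 and 70.9 at the high dose. The doses of Sibjeondaebo-tang overlapped, while each high-dose library of Palmul-tang lay below each of its low-dose libraries. Sagunja-tang held 79.7 CPM at the low, 72.5 at the medium and 51.9 at the high dose, its last value being the lowest of all 30 libraries, and the vehicle held 75.3, 79.3 and 79.8 CPM. The dose step of CA9 was 0.03 (SE 0.029, adjusted p = 0.381) in Sibjeondaebo-tang, -0.10 (SE 0.029, adjusted p = 0.0569) in Palmul-tang, 0.10 (SE 0.035) in Samul-tang and -0.31 in Sagunja-tang. The Palmul-tang value missed the threshold in this fit and passed it with DESeq2 (adjusted p = 0.0336). By edgeR it passed with the replicate number as a block (adjusted p = 0.0213), with no filter on low counts (adjusted p = 0.00256) and with only the 2 groups compared (adjusted p = 0.0414). It also passed without Palmul-tang low replicate 1 (adjusted p = 0.0492) and without Palmul-tang high replicate 3 (adjusted p = 0.0356). Over all alternatives that adjusted p ran from 0.00256 to 0.276. CA9 overlaps ARHGEF39 on the other strand.

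VEGFA (ENSG00000112715, chr6:43770184-43786487, plus strand), the growth factor that draws new vessels, fell with the dose of Sibjeondaebo-tang. It held 39.1, 41.2 and 37.5 CPM at the low, 36.4, 36.5 and 38.8 at the medium and 31.4, 30.7 and 32.7 at the high dose. The 3 high-dose libraries were the lowest of all 30. Samul-tang held 38.8 and 39.7 CPM of VEGFA at the low and 40.8 and 40.0 at the high dose. Palmul-tang held 38.4, 42.4 and 40.2 CPM at the low and 37.2, 39.4 and 39.3 at the high dose, and the vehicle 36.0, 36.5 and 36.5 CPM. VEGFA shares exon bases with AL136131.3 on the other strand. The step of VEGFA was -0.16 (SE 0.024, adjusted p = 5.36e-06) in Sibjeondaebo-tang, -0.03 (SE 0.024, adjusted p = 0.64) in Palmul-tang, 0.02 (SE 0.029) in Samul-tang and -0.16 in Sagunja-tang, which held 42.9 CPM at the low and 34.5 at the high dose.

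NDRG1 (ENSG00000104419, chr8:133237171-133302022, minus strand), a stress-responsive gene induced by hypoxia in many cell types, varied little. Its high-dose libraries held 119 and 128 CPM in Samul-tang, 114, 111 and 137 in Sibjeondaebo-tang and 107, 113 and 109.9 in Palmul-tang, against 103, 99.4 and 98.6 CPM in vehicle. Sibjeondaebo-tang high replicate 3 stood above the other 2 libraries of its group. The step of NDRG1 was 0.06 (SE 0.030, adjusted p = 0.117) in Sibjeondaebo-tang, and it passed without replicate 1 (adjusted p = 0.0233) or replicate 2 (adjusted p = 0.0109) of the high dose and with no filter on low counts (adjusted p = 0.016), within a range of 0.0109 to 0.589 over the alternatives. In Palmul-tang the step was 0.01 (SE 0.030, adjusted p = 0.958), and in Samul-tang 0.08 (SE 0.037).

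STC1 (ENSG00000159167, chr8:23841915-23854807, minus strand), which encodes the secreted glycoprotein stanniocalcin and is transcribed in hypoxic carcinoma cells, had the widest range. It held 40.7 and 41.6 CPM at the low, 33.5 and 39.3 at the medium and 36.3 and 38.3 at the high dose of Samul-tang. In Sibjeondaebo-tang STC1 held 37.6, 39.4 and 37.4 CPM at the low, 29.5, 31.5 and 34.6 at the medium and 24.7, 22.2 and 28.5 at the high dose. In Palmul-tang it held 35.5, 38.4 and 40.0 CPM at the low, 31.8, 32.6 and 33.2 at the medium and 23.3, 24.5 and 23.6 at the high dose. The libraries of these 2 formulas thus were lower at each higher dose, without overlap. Sagunja-tang held 37.4 CPM at the low, 29.1 at the medium and 17.6 at the high dose, and the vehicle 30.2, 28.4 and 32.4 CPM. High-dose libraries of Sibjeondaebo-tang, Palmul-tang and Sagunja-tang lay below every low-dose library, while those of Samul-tang lay below its own low-dose libraries but among the low-dose libraries of the other formulas. The steps, given without a test since STC1 was picked for this pattern, were -0.07 (SE 0.042) in Samul-tang, -0.30 (SE 0.035) in Sibjeondaebo-tang, -0.34 (SE 0.035) in Palmul-tang and -0.54 in Sagunja-tang.

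Ordered by group mean, STC1 was highest at the low dose of Samul-tang (41.1 ± 0.638 CPM, n = 2). The low doses of Sibjeondaebo-tang (38.1 ± 1.09, n = 3), Palmul-tang (37.96 ± 2.29, n = 3) and Sagunja-tang (37.4, n = 1) came next, followed by the high (37.3 ± 1.38, n = 2) and medium (36.4 ± 4.12, n = 2) doses of Samul-tang. Apart from the first, these neighbours lay within each other's spread. The medium doses of Palmul-tang (32.5 ± 0.689) and Sibjeondaebo-tang (31.9 ± 2.54), the vehicle (30.4 ± 1.97, n = 3 each) and the medium dose of Sagunja-tang (29.1) formed the next run, again with overlapping libraries between neighbours of 3 libraries. The high doses of Sibjeondaebo-tang (25.1 ± 3.16), Palmul-tang (23.8 ± 0.601) and Sagunja-tang (17.6) closed the order, and the libraries of the first 2 of these overlapped. STC1 has no exon overlap with another gene in GENCODE release 29.

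**Figure D2:**
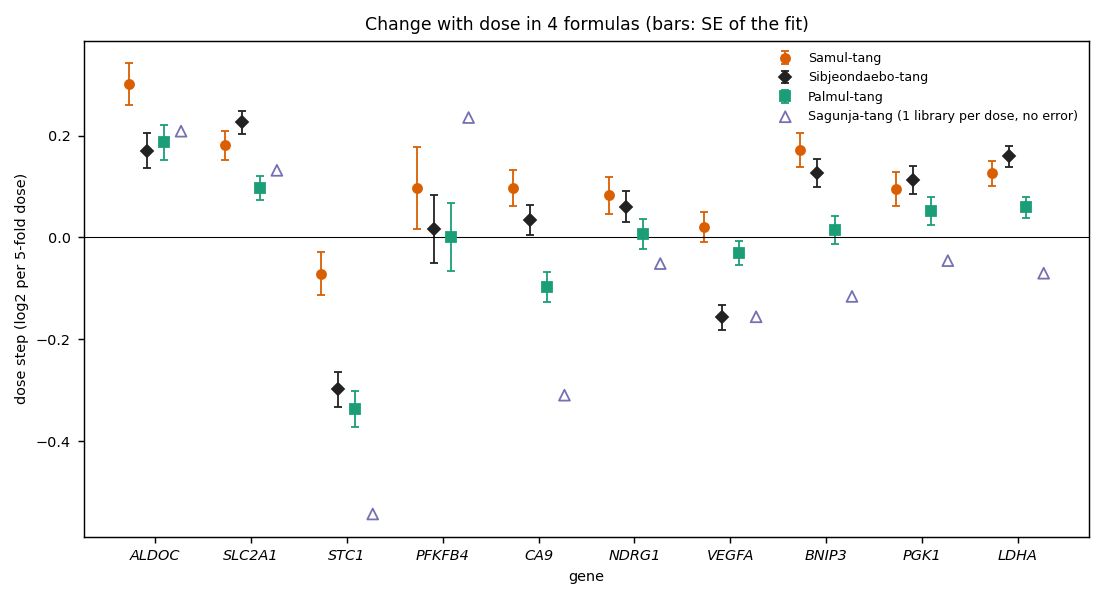
Dose step of each gene in Samul-tang, Sibjeondaebo-tang, Palmul-tang and Sagunja-tang, in log2 per 5-fold dose. Bars are SEs of the fit, and Sagunja-tang, with 1 library per dose, has none. ALDOC and SLC2A1 lie above 0 in all 4 formulas, whereas STC1 lies below 0 in all 4, from -0.07 in Samul-tang to -0.54 in Sagunja-tang.

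Counted over the 9 members other than STC1, 5 rose with the dose of Sibjeondaebo-tang (ALDOC, SLC2A1, BNIP3, PGK1 and LDHA) and 1 fell (VEGFA), a comparison in which 38.4% of the 17701 genes tested had an adjusted p below 0.05, the threshold used throughout. In Palmul-tang 2 of the 9 rose (ALDOC and SLC2A1) and none fell, while 3.47% of all genes passed. The Palmul-tang step contains the high-dose libraries that took part in the choice. The median step of the 9 was 0.11 in Sibjeondaebo-tang and 0.02 in Palmul-tang, with medians over all genes of -0.01 and 0.00. In Samul-tang the members were chosen on the step itself: its median over all 10 was 0.10, with 9 above 0 and STC1 below. In Sagunja-tang 3 of the 10 lay above 0, namely ALDOC, SLC2A1 and PFKFB4, with a median of -0.06.

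The steps of Sibjeondaebo-tang and Palmul-tang were compared directly in a contrast added after the data had been seen. It contains the high-dose libraries of Palmul-tang, which took part in the choice of the members. The dose step was higher in Sibjeondaebo-tang for SLC2A1 by 0.13 (SE 0.032, adjusted p = 0.00562), for CA9 by 0.13 (SE 0.041, adjusted p = 0.0275), for BNIP3 by 0.11 (SE 0.038, adjusted p = 0.0456) and for LDHA by 0.10 (SE 0.028, adjusted p = 0.0143). For VEGFA it was lower, with a difference of -0.13 (SE 0.034, adjusted p = 0.0101). For ALDOC the difference was -0.02, with an interval of -0.11 to 0.08, and for PGK1 it was 0.06, with an interval of -0.02 to 0.14. Of the 9 members 5 thus passed, and 14.9% of all genes did. SLC2A1 kept its call in every alternative run, while CA9, BNIP3, LDHA and VEGFA each lost theirs when at least 1 library was left out, with adjusted p of up to 0.0741, 0.124, 0.0554 and 0.059.

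At matched doses the question is whether formulas that share herbs differ. With 500 µg/mL every one of the 10 members was higher in Samul-tang than in Palmul-tang, with no overlap between their libraries, the contrast on which attention to these genes rested. Among all genes tested, 12.7% had each Samul-tang library above each Palmul-tang library. STC1 had 37.3 ± 1.38 CPM in Samul-tang (SD, n = 2) and 23.8 ± 0.601 in Palmul-tang (n = 3), a log2 difference of 0.65 (SE 0.078). CA9 had 90.0 ± 1.54 CPM in Samul-tang and 67.7 ± 3.03 in Palmul-tang, with 0.41 (SE 0.064). ALDOC had 23.6 ± 0.179 and 18.7 ± 1.59 CPM, with 0.34 (SE 0.073).

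These 3 genes, with PFKFB4 at 0.35 (SE 0.15), lay furthest apart. The other members differed by 0.26 (BNIP3), 0.17 (NDRG1), 0.16 (LDHA), 0.14 (SLC2A1), 0.12 (PGK1) and 0.06 (VEGFA) on the log2 scale. The median difference of the 10 was 0.21, and the median of all genes was -0.00. Palmul-tang's high-dose libraries serve both here and in its dose step, so the 2 sets of values are not independent.

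At the lower doses Samul-tang and Palmul-tang were tested. The medium-dose libraries are not in the contrasts named for the choice of the genes, while the low-dose libraries of Samul-tang are, through its dose step. Since earlier results of these data were known at the choice, independence of the medium-dose test is not established either. Neither dose gave a call among the 9 members or among all genes tested (0% of 17701), by edgeR's quasi-likelihood test. At an unadjusted p under 0.05 there were 1303 genes at the medium dose, with ALDOC the only member, and 457 at the low dose, with no member. DESeq2 called 0 genes at the medium and 2 at the low dose, none of them a member. ALDOC at the medium dose held 15.7 and 16.6 CPM in Samul-tang and 14.1, 14.7 and 13.5 in Palmul-tang, a log2 difference of 0.20 (SE 0.078, adjusted p = 0.559) with an interval of 0.05 to 0.35. Its libraries did not overlap at either lower dose, nor did those of STC1, or those of NDRG1 at the low dose. The share of all genes without overlap was not counted at these doses, so this too is only a description of the libraries. CA9 differed by 0.08 at the medium dose (interval -0.05 to 0.20) and by 0.02 at the low dose (interval -0.11 to 0.15), and the high-dose difference lies outside the interval at the medium dose. For PFKFB4 the intervals of -0.05 to 0.53 and -0.14 to 0.45 still include its high-dose difference. STC1 differed by 0.16 (SE 0.077) at the medium and 0.12 (SE 0.075) at the low dose. Without Samul-tang medium replicate 2 the medium-dose difference of STC1 was 0.28, and without replicate 3 it was 0.04.

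**Figure D3:**
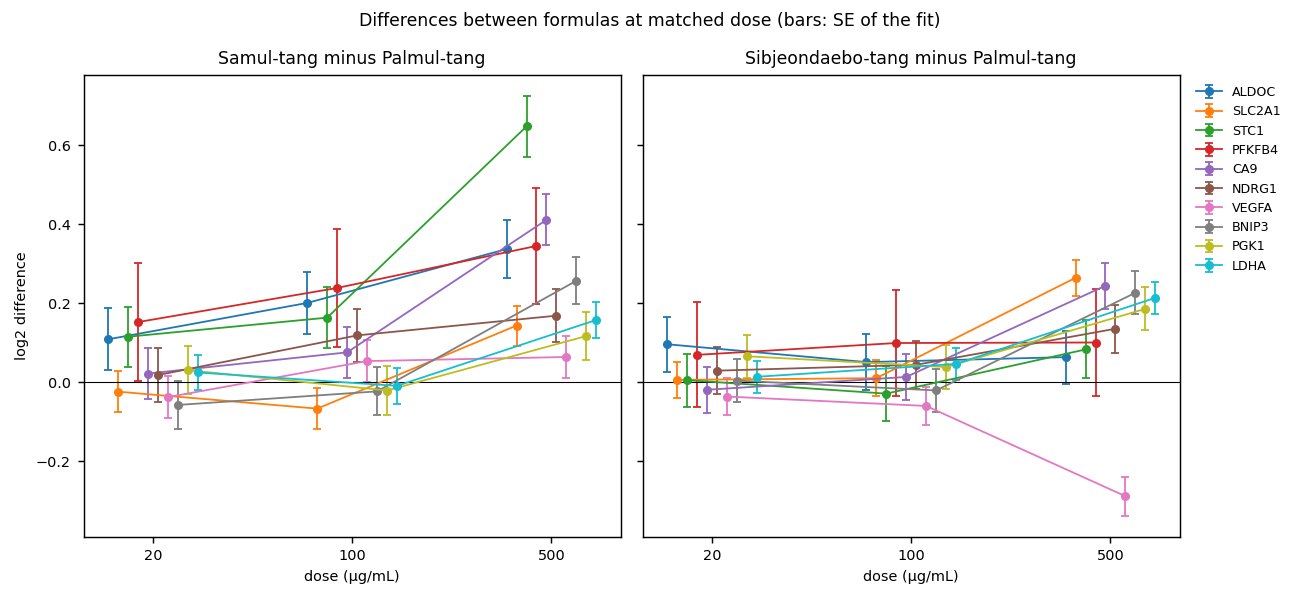
Log2 differences of the 10 genes at 20, 100 and 500 µg/mL, Samul-tang minus Palmul-tang on the left and Sibjeondaebo-tang minus Palmul-tang on the right, with SEs of the fit as bars. At 500 µg/mL all 10 genes lie above 0 on the left, from 0.06 for VEGFA to 0.65 for STC1. On the right VEGFA lies at -0.29 and SLC2A1 at 0.26.

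Sibjeondaebo-tang was compared with Palmul-tang at each dose. At the high dose the Palmul-tang libraries are those that took part in the choice of the members, so the tests there are not independent of it. At the high dose 5 of the 9 were higher in Sibjeondaebo-tang (SLC2A1, CA9, BNIP3, PGK1 and LDHA) and 1 was lower (VEGFA), where 30.3% of all genes tested passed. SLC2A1 had 99.9 ± 4.75 CPM in Sibjeondaebo-tang and 83.2 ± 1.12 in Palmul-tang (SD, n = 3 each), a difference of 0.26 (SE 0.045, adjusted p = 3.68e-05). VEGFA had 31.6 ± 0.980 and 38.6 ± 1.25 CPM, with -0.29 (SE 0.049, adjusted p = 2.97e-05). CA9 had 80.2 ± 5.25 CPM in Sibjeondaebo-tang and 67.7 ± 3.03 in Palmul-tang, with 0.24 (SE 0.059, adjusted p = 0.00186). Libraries of these 3 genes did not overlap between the formulas, and neither did those of BNIP3, PGK1 and LDHA. The share of all genes without overlap was not counted for these formulas, so this separation is a description and sets the members apart from no other genes.

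LDHA had 2646 ± 70.0 CPM in Sibjeondaebo-tang and 2282 ± 122 in Palmul-tang, a difference of 0.21 (SE 0.040, adjusted p = 0.000114). BNIP3 had 83.9 ± 3.79 and 71.7 ± 4.17 CPM, with 0.23 (SE 0.054, adjusted p = 0.00164). PGK1 differed by 0.19 (SE 0.055, adjusted p = 0.00943), and lost its call without replicate 1 of Sibjeondaebo-tang at that dose (adjusted p = 0.0542) or Palmul-tang high replicate 2 (adjusted p = 0.0771), within a range of 3.29e-05 to 0.0771 over the alternatives. ALDOC, at 19.5 ± 2.11 CPM in Sibjeondaebo-tang and 18.7 ± 1.59 in Palmul-tang, differed by 0.06 (SE 0.067, adjusted p = 0.52), with an interval of -0.07 to 0.20. NDRG1 differed by 0.14 (SE 0.060, adjusted p = 0.0911), passing when replicate 1 of Sibjeondaebo-tang was left out (adjusted p = 0.0211), or replicate 2 (adjusted p = 0.00967) and with no filter on low counts (adjusted p = 0.00365), within a range of 0.00365 to 0.496. PFKFB4 differed by 0.10 (SE 0.14, adjusted p = 0.629). STC1, described only, differed by 0.08 (SE 0.073), and by 0.19 without Sibjeondaebo-tang high replicate 2. The median over the 9 members was 0.19, against -0.00 over all genes. At the medium and low doses edgeR called none of the 9 and 0% of all genes, with 453 and 426 genes at an unadjusted p under 0.05, no member among them, and DESeq2 called 1 and 0 genes, no member either.

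The wider pathway was counted in 4 lists, chosen with earlier results of these data known. Of these, glycolysis and lactate transport came closest to the members. Of its 20 genes 13 rose and 3 fell with the dose of Sibjeondaebo-tang, with a median step of 0.10, where 3276 of all genes rose and 3529 fell (38.4% in all). ALDOA, the muscle-type aldolase, had 1609 ± 105 CPM at the low and 2216 ± 6.42 at the high dose (n = 3 each), a step of 0.23 (SE 0.023, adjusted p = 1.56e-09). GAPDH rose by 0.22 (SE 0.025, adjusted p = 3.27e-08), PFKP, a phosphofructokinase, by 0.16 (SE 0.019, adjusted p = 7.61e-08), and GPI, the isomerase before it, by 0.16 (SE 0.020, adjusted p = 2.04e-07). The 3 that fell were ENO2 (-0.14), PFKFB2 (-0.21) and the glucose transporter gene SLC2A3 (-0.19). In Palmul-tang 1 gene rose, GPI (0.07, SE 0.020, adjusted p = 0.0497), and 1 fell, SLC2A3 (-0.19, SE 0.031, adjusted p = 0.000113), with a median of 0.02, where 3.47% of all genes passed. The count that rose was 0 with RLE size factors and 2 with DESeq2. In the comparison at the high dose, where 30.3% of all genes passed, 13 of the 20 were higher and 2 lower in Sibjeondaebo-tang than in Palmul-tang, led by ALDOA (0.32, SE 0.046, adjusted p = 2.41e-06), PGAM1 (0.31), ENO1 (0.31) and GPI (0.21). ENO2 (-0.28) and PFKFB2 (-0.24) were the 2 that were lower.

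A second list held 23 other hypoxia targets. With the dose of Sibjeondaebo-tang 7 rose and 2 fell, with a median of 0.04, so that the number passing was near the share of all genes (38.4%). ANGPTL4, an inhibitor of lipoprotein lipase, rose by 0.17 (SE 0.033, adjusted p = 0.000114), and CA12, another carbonic anhydrase of the membrane, by 0.10 (SE 0.018, adjusted p = 2.8e-05). KDM3A (-0.12) and MIR210HG (-0.25) fell. In Palmul-tang 3 rose, among them STC2 (0.13, SE 0.027, adjusted p = 0.00223) and CA12 (0.08, SE 0.018, adjusted p = 0.0068), and none fell. STC2, the paralogue of STC1, had 26.2 ± 0.353 CPM at the low and 31.4 ± 0.617 at the high dose of Palmul-tang, the opposite direction to STC1. Between the formulas at the high dose, again near the 30.3% of all genes, 6 of the 23 were higher and 2 lower in Sibjeondaebo-tang than in Palmul-tang, with ANGPTL4 (0.29) and TFRC (0.20) among the 6 and STC2 (-0.26) and KDM3A (-0.26) the 2. In Samul-tang, without a test, 22 of the 23 steps lay above 0, with a median of 0.07. Over all 17701 genes 8712 steps lay above 0, with a median of -0.00. Genes of hypoxia had been noticed in that step, so the count is no separate support.

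The oxygen-sensing machinery was counted over 9 genes. In Sibjeondaebo-tang EGLN2 rose (0.08, SE 0.022, adjusted p = 0.0037) and HIF3A, a scarce alpha subunit, fell (-0.37, SE 0.13, adjusted p = 0.0189), with a median of -0.01, where 38.4% of all genes passed. With DESeq2 1 gene of the 9 rose and 0 fell. In Palmul-tang, where 3.47% of all genes passed, the genes of both main alpha subunits fell, EPAS1 with a step of -0.09 (SE 0.023, adjusted p = 0.0141) and HIF1A with -0.09 (SE 0.025, adjusted p = 0.034). EPAS1 had 288 ± 18.7 CPM at the low and 253 ± 9.91 at the high dose of Palmul-tang, and HIF1A 453 ± 19.6 and 399.5 ± 25.0. Of the 9, 3 were higher in Sibjeondaebo-tang than in Palmul-tang at the high dose, near the 30.3% of all genes, EPAS1 (0.21, SE 0.046, adjusted p = 0.000784), EGLN2 (0.14) and EGLN1 (0.13). RNA of these genes says little of HIF activity, which is set largely by protein turnover. Of 5 genes of glucose sensing, MLXIPL, a glucose-responsive transcription factor of low abundance, fell with the dose of Sibjeondaebo-tang (-0.53, SE 0.079, adjusted p = 2.86e-06) and was lower there than in Palmul-tang at the high dose (-0.97, SE 0.16, adjusted p = 2.24e-05). No other of the 5 passed in these comparisons, and in Palmul-tang none of the 5 passed (1 at an unadjusted p under 0.05).

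**Figure D4:**
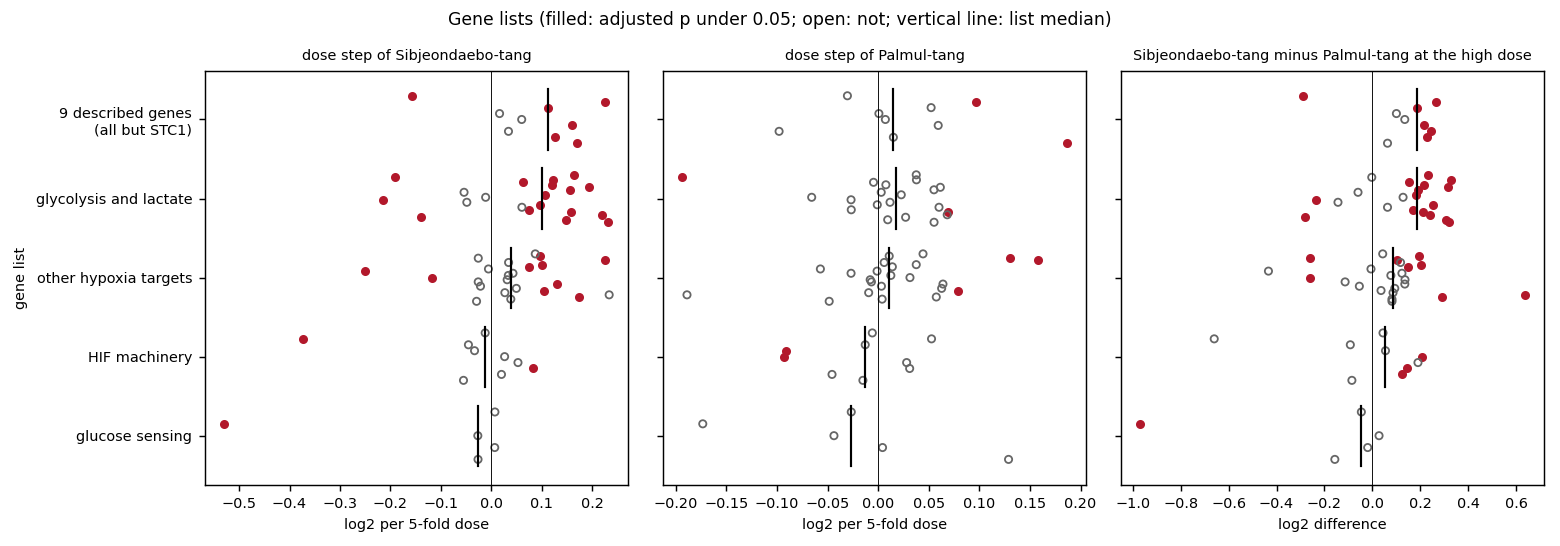
Each point is a gene of the 9 described members or of the lists for glycolysis and lactate, other hypoxia targets, the oxygen-sensing machinery and glucose sensing, with the log2 value on the horizontal axis. Panels show the dose step of Sibjeondaebo-tang, that of Palmul-tang and the difference between them at the high dose; filled points passed an adjusted p under 0.05 and vertical bars are list medians. In the glycolysis list 13 of 20 genes rose in the first panel and 1 rose in the second.

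Against vehicle, with the limit on library codes stated above, more of the members passed at the high dose than with the dose step, as did more of all genes. At the high dose of Sibjeondaebo-tang 7 of the 9 were higher than in vehicle and VEGFA was lower, where 41.8% of all genes passed. LDHA had 2646 ± 70.0 CPM in Sibjeondaebo-tang and 1787 ± 43.0 in vehicle (n = 3 each), a difference of 0.57 (SE 0.040, adjusted p = 1.79e-12). ALDOC differed by 0.49 (SE 0.071, adjusted p = 1.06e-06), SLC2A1 by 0.40 (SE 0.046, adjusted p = 2.21e-08), PGK1 by 0.40 (SE 0.055, adjusted p = 3.59e-07) and BNIP3 by 0.37 (SE 0.055, adjusted p = 1.86e-06). NDRG1 (0.27, SE 0.061, adjusted p = 0.000735) and PFKFB4 (0.44, SE 0.14, adjusted p = 0.0155) passed as well, PFKFB4 not without vehicle replicate 3 (adjusted p = 0.082) or Sibjeondaebo-tang high replicate 3 (adjusted p = 0.103), within a range of 0.000202 to 0.103 over the alternatives. VEGFA differed by -0.20 (SE 0.050, adjusted p = 0.00132) and CA9 by 0.04 (SE 0.059, adjusted p = 0.646). The median over the 9 members was 0.40, against -0.03 over all genes.

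At the high dose of Palmul-tang 5 of the 9 were higher than in vehicle and CA9 was lower, where 37.1% of all genes passed. These Palmul-tang libraries took part in the choice. ALDOC had 18.7 ± 1.59 CPM in Palmul-tang and 13.9 ± 0.619 in vehicle, with 0.43 (SE 0.070, adjusted p = 1.52e-05). LDHA (0.35, SE 0.040, adjusted p = 6.81e-08) and PGK1 (0.22, SE 0.055, adjusted p = 0.00185) were higher, and CA9, at 67.7 ± 3.03 CPM in Palmul-tang and 78.2 ± 2.52 in vehicle, was lower (-0.21, SE 0.059, adjusted p = 0.0059). SLC2A1 (0.13, SE 0.046, adjusted p = 0.0217) did not pass without vehicle replicate 1, Palmul-tang high replicate 1 or Palmul-tang high replicate 3, with adjusted p from 0.0573 to 0.115, or with only the groups compared (adjusted p = 0.0669). BNIP3 (0.14, SE 0.055, adjusted p = 0.0426) did not pass without vehicle replicate 1, vehicle replicate 2 or Palmul-tang high replicate 3, with adjusted p from 0.116 to 0.25, or with only the groups compared (adjusted p = 0.075). PFKFB4, at 0.34 and adjusted p = 0.0663, passed without vehicle replicate 1 (adjusted p = 0.0342), with no filter on low counts (adjusted p = 0.0151) and with only the groups compared (adjusted p = 0.0377), and NDRG1 passed with no filter (adjusted p = 0.032). Over the alternatives the adjusted p ran from 0.0161 to 0.115 for SLC2A1, 0.018 to 0.25 for BNIP3, 0.0151 to 0.257 for PFKFB4 and 0.032 to 0.202 for NDRG1. Samul-tang at the high dose, without a test, lay above vehicle for all 10 members, from 0.15 for VEGFA to 0.77 for ALDOC on the log2 scale.

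The low doses of Samul-tang, Sibjeondaebo-tang and Palmul-tang together were also set against vehicle, where 42.6% of all genes passed. The Samul-tang libraries among them took part in the choice of the members. There 5 of the 9 were higher and none was lower. LDHA had 2138 ± 8.05 CPM in Samul-tang, 2122 ± 55.6 in Sibjeondaebo-tang and 2102 ± 30.3 in Palmul-tang, against 1787 ± 43.0 in vehicle, with 0.25 (SE 0.034, adjusted p = 5.24e-07). PFKFB4 (0.41, SE 0.12, adjusted p = 0.00703), PGK1 (0.15, SE 0.046, adjusted p = 0.00972), VEGFA (0.12, SE 0.041, adjusted p = 0.0138) and NDRG1 (0.13, SE 0.051, adjusted p = 0.0349) were the others. The count was 2 without vehicle replicate 1, which ended the calls of PGK1 (adjusted p = 0.13), VEGFA (0.0615) and NDRG1 (0.0543), and 3 without vehicle replicate 3, which ended those of PFKFB4 (0.0687) and NDRG1 (0.108). NDRG1 also failed to pass without any of vehicle replicate 2, Samul-tang low replicate 3 and Sibjeondaebo-tang low replicate 3. Without Sibjeondaebo-tang low replicate 1, BNIP3 passed too (adjusted p = 0.0211). Over the alternatives the adjusted p ran from 8.28e-17 to 0.000121 for LDHA, 7.79e-05 to 0.0687 for PFKFB4, 0.000636 to 0.13 for PGK1, 0.00722 to 0.0615 for VEGFA, 0.0031 to 0.108 for NDRG1 and 0.0211 to 0.271 for BNIP3. ALDOC, at 0.12, SLC2A1, at -0.07, and CA9, at -0.01, did not pass. STC1, described only, lay at 0.37 (SE 0.059), with every low-dose library above every vehicle library and, in each formula but Samul-tang, the high-dose libraries among or below those of the vehicle.

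The lists parted in this comparison. Where 42.6% of all genes passed, of 20 glycolysis genes 9 were lower at the low doses than in vehicle. Among them were ALDOA (-0.36, SE 0.037, adjusted p = 5.65e-09), PFKP (-0.24) and GAPDH (-0.28). Another 4 were higher, among them PDK1 (0.44, SE 0.072, adjusted p = 1.36e-05), a kinase of pyruvate dehydrogenase. Of 23 other hypoxia targets 10 were higher and 1 lower. AK4 (0.39, SE 0.037, adjusted p = 1.07e-09), PLOD2 (0.38), P4HA1 (0.44) and BNIP3L (0.28) were among those higher. In Sibjeondaebo-tang ALDOA averaged 1609 ± 105 CPM with the low and 2216 ± 6.42 with the high dose, against 2106 ± 133 in vehicle, while LDHA was above vehicle at both. Of the oxygen-sensing genes 3 were higher and 2 lower, EGLN2 (-0.38) and EPAS1 (-0.30), and of the 5 glucose-sensing genes 1 was higher and 2 were lower. At the high dose of Sibjeondaebo-tang 8 glycolysis genes were higher and 1 lower than in vehicle, near the 41.8% of all genes that passed, and 13 of the 23 other hypoxia targets were higher and none lower, among them P4HA1 (0.63, SE 0.054, adjusted p = 7.05e-11), a prolyl hydroxylase of collagen. At that of Palmul-tang, where 37.1% of all genes passed, 3 glycolysis genes were higher and 6 lower, ALDOA (-0.25) among the 6, and 13 other hypoxia targets were higher and 1 lower, with P4HA1 again higher (0.48, SE 0.054, adjusted p = 5.16e-08). All comparisons with vehicle share its 3 libraries, and vehicle replicate 3 had the smallest total of the 30.

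Over the 13 group means, as a description of points that share libraries and scaling, ALDOC went with SLC2A1 (Pearson 0.77) and not with STC1 (-0.33) or CA9 (-0.02). STC1 went with CA9 (0.81) and VEGFA (0.71), and NDRG1 and BNIP3 went with LDHA (0.90 and 0.88). Among 11361 genes with a symbol and a mean of at least 2 log2 CPM, those most like ALDOC were CA12 (0.925), CEACAM6 (0.924) and HTRA1 (0.904). The ones most like SLC2A1 were ELK3 (0.966), SLC35B1 (0.944) and TPD52L1 (0.942). For STC1 they were SERPINA1 (0.947), HOMER2 (0.937) and FGB (0.935). SERPINA1 had means of 40.4 CPM in Samul-tang, 34.0 in Sibjeondaebo-tang and 29.2 in Palmul-tang at the high dose, against 36.6 in vehicle.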

How the data were processed

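Per the labels' protocols, directional mRNA libraries were made from RNA of integrity number over 7 and sequenced as 100 bp pairs. Per the submitters' processing notes, FastQC 0.11.9, Trim Galore 0.6.5, STAR 2.7.3a, RSEM 1.3.3 and GRCh38 were used. The annotation release and strand setting are not given in the sources used here. The authors deposited expected counts per gene, in which RSEM divides shared reads; 8.5% to 9.82% of the values per library were not whole, and all were rounded. The table's other 240 columns were not used.

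The members and lists were chosen with earlier results of these data known. Genes were kept by filterByExpr, and 1 model with 13 group means was fitted to all 30 libraries with edgeR 4.0.16 in R 4.3.3 (TMM, glmQLFit with robust estimation, glmQLFTest; 17 residual degrees of freedom). P-values were adjusted by Benjamini-Hochberg over all 17701 genes, with a threshold of 0.05. SEs are the log2 difference over the square root of its F statistic. Intervals are nominal 95% ones from the normal distribution, and so somewhat narrower than the F tests imply. CPM uses TMM-scaled totals. The script was tested on simulated counts. From each list the 4 genes with the smallest adjusted p per comparison were eligible for naming, and genes that make up a count of 5 or fewer were named after their values were seen. Likeness was the Pearson correlation of group means of log2(CPM + 0.5). Symbols, coordinates and exon overlaps come from GENCODE release 29 (GRCh38). Alternatives were DESeq2 1.42.0, RLE size factors, no filter, a fit of only the groups compared, a replicate block and leaving out each library. Precision is given by SDs over libraries, and Sagunja-tang has no replicate.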

Additional observations from a re-analysis of the deposited data

Results flagged for a closer look

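For 5 members the dose step of Sibjeondaebo-tang differed from that of Palmul-tang in a test of the difference itself (edgeR, Benjamini-Hochberg over all genes), added after the data had been seen. The high-dose libraries of Palmul-tang in it also took part in the choice of the members, so these p-values are not independent of that choice. The differences were 0.13 for SLC2A1 (adjusted p = 0.00562), 0.13 for CA9 (adjusted p = 0.0275), 0.11 for BNIP3 (adjusted p = 0.0456), 0.10 for LDHA (adjusted p = 0.0143) and -0.13 for VEGFA (adjusted p = 0.0101) on the log2 scale per 5-fold dose. SLC2A1 passed under every alternative run. LDHA did not pass without Palmul-tang high replicate 2 (adjusted p = 0.0554). VEGFA did not pass with no filter on low counts (adjusted p = 0.0552) or without replicate 2 of the high (0.059) or low (0.0503) dose of Sibjeondaebo-tang. CA9 did not pass without Palmul-tang high replicate 1 (0.0741), Palmul-tang low replicate 3 (0.0514) or replicate 1 (0.0519) or 2 (0.0611) of the low dose of Sibjeondaebo-tang. BNIP3 was lost with only the groups compared (0.0879) and without any of 7 libraries, with adjusted p from 0.0582 to 0.124. Over all alternatives the adjusted p ran from 0.000883 to 0.0259 for SLC2A1, 0.00032 to 0.0554 for LDHA, 0.00677 to 0.059 for VEGFA, 0.000737 to 0.0741 for CA9 and 0.0057 to 0.124 for BNIP3.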

How the results depend on the processing

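No called value changed sign under an alternative. The count of members called in the dose step of Palmul-tang was 2, was 4 with DESeq2, which added CA9 and LDHA, and ran from 1 to 3 when a library was left out, the 1 being without Palmul-tang low replicate 3. For the low doses against vehicle the count of 5 ran from 2 to 6 in the same way, and for the difference of the dose steps the count of 5 ran from 2 (without Sibjeondaebo-tang low replicate 2) to 5, with 3 without Palmul-tang high replicate 1, Palmul-tang high replicate 2, Palmul-tang low replicate 3 or Sibjeondaebo-tang low replicate 1. Leaving out a library gave 6 to 7 members in the step of Sibjeondaebo-tang, 5 to 7 in its difference from Palmul-tang at the high dose, 7 to 8 against vehicle, and 4 to 6 for Palmul-tang against vehicle. The medium and low doses gave 0 throughout among the members. Over all genes the step of Palmul-tang called 615, against 381 when its groups were fitted alone, 351 when its high replicate 1 was left out and 371 when its low replicate 3 was. Samul-tang against Palmul-tang called 0 genes at the medium dose, but 28 when the groups were fitted alone and 12 with no filter on low counts, and at most 2 at the low dose. Sibjeondaebo-tang against Palmul-tang called at most 2 at either dose. With the replicate number as a block the step of Palmul-tang had 3 calls, CA9 being added, and no other member's call changed. Taken over all genes, the numbers showed no pairing of the libraries. Deviations from group means correlated at a median of 0.00614 over 111 pairs of the same number (from -0.122 to 0.0886) and -0.000258 over 216 pairs of different numbers. These medians cannot decide it for single genes. CA9 was lowest in replicate 1 of vehicle and of each dose of Palmul-tang, but not of the medium and high doses of Sibjeondaebo-tang. Of 1640 values of single genes under alternatives, 1525 kept direction and side of the threshold or moved by less than the replicate spread. Samul-tang rests on 2 libraries per dose and Sagunja-tang on 1.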
